A study of Mus musculus with 6 samples.

Results

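The secreted signals that guide blood vessels, and the neuropilin co-receptors of some of them, were followed in cochlear explants after loss of hair cells (HCs). They were taken by symbol from the count table and comprise the VEGF ligands Vegfa, Vegfb, Vegfc, Figf (the older symbol of Vegfd) and Pgf, the angiopoietins Angpt1 and Angpt2, the neuropilin co-receptors Nrp1 and Nrp2, and the peptide apelin, Apln. The 10 genes are called signals below, with the co-receptors, which are not secreted ligands, included. All 10 were among the 24421 symbols of the table, and all 10 were among the 15988 genes with enough counts to test. RNA came from wild-type mice at postnatal day 2, whose cochleae were dissected free of the modiolus, the anlage of the stria vascularis and the tectorial membrane. The explants were cultured for 12 h before neomycin, an aminoglycoside that kills HCs, was given at 1 mM over 6 h, and then for 5 days with the thymidine analog EdU at 10 μM. The 3 control samples are taken as explants without neomycin, as the study's scheme shows them, although the labels give 1 protocol text for all 6 samples. Each of the 3 control and 3 neomycin samples was a pool of 6 to 8 cochleae. Nothing states that the pools came from separate litters or days, so p-values measure the spread between these pools.

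VEGF-A binds the endothelial receptors VEGFR1 (Flt1) and VEGFR2 (Kdr) and drives the growth and survival of blood vessels, whereas VEGF-C and VEGF-D act on VEGFR3 (Flt4) of lymphatic vessels. Angiopoietin 1 activates the receptor Tie2 (Tek) and steadies vessels, and angiopoietin 2, which endothelial cells release themselves, usually counters it. Apelin is made by the endothelial cells that lead a sprout and acts on the receptor Aplnr. In the cochlea, vessels run in the lateral wall and along the spiral lamina, while the sensory epithelium itself holds none.

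Total counts per sample lay between 50471116 and 66068108. HC markers checked the labels: 14 of 15 were lower after neomycin, with Slc26a5 (prestin) at 27.1, 27.1 and 23.1 CPM (counts scaled to the size of each library by the TMM method) in control and 1.85, 1.69 and 1.30 after neomycin. The supporting cell factor Sox2 was present in all samples, at 78.5 to 102 CPM. Over all genes tested, 2571 (16.1%) were lower and 2058 (12.9%) higher when adjusted p-values under 0.05 were called (quasi-likelihood test of edgeR with Benjamini-Hochberg adjustment). Of the calls, 55.5% were lower, and 70.3% when libraries were scaled by their totals only.

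After neomycin, 5 of the 10 signals fell and 0 rose. Angpt2, Pgf, Apln, the co-receptor Nrp2 and Vegfa fell at an adjusted p-value under 0.05 (edgeR). Of all genes tested, 16.1% were called lower and 12.9% were called higher. At an unadjusted p-value under 0.05, 1 of the 10 was higher, and neither DESeq2 nor limma-voom called any of them higher. With a block for the replicate number, Vegfb was called higher (edgeR, adjusted p = 0.0156). Angpt2, Pgf, Apln and Nrp2 also passed a fold change of 1.5, against 6.60% of all genes, and Vegfa had a smaller fold change. The median log2 fold change of the 10 was -0.55, and that of all genes tested was -0.0041. In 6 of the 10 the neomycin samples all lay below the control samples, and in 0 all above, against 22.5% and 21.0% of all genes. In bulk RNA, fewer cells of a type and less RNA per cell cannot be told apart.

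**Figure D1:**
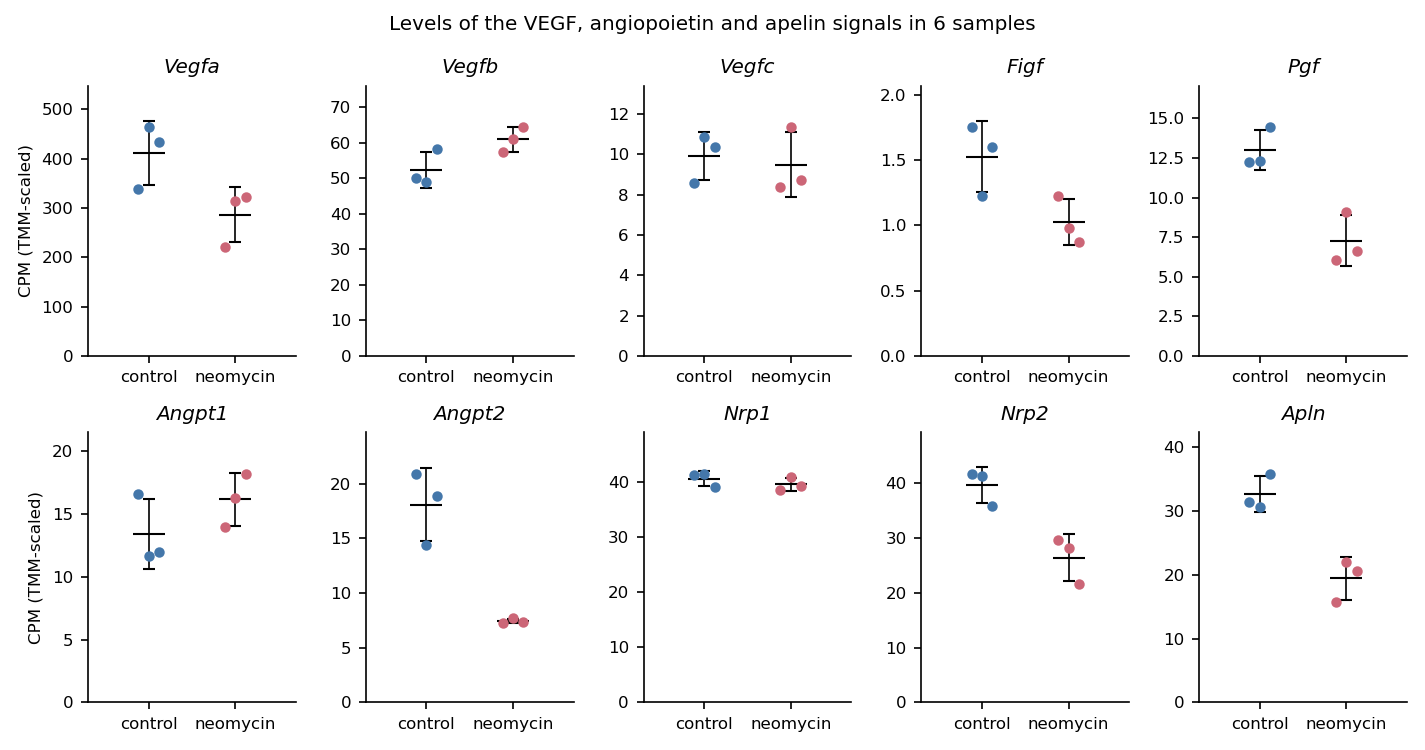
Level of each signal in CPM (vertical axes from 0, TMM-scaled) in the 3 control and 3 neomycin samples; points are samples, and bars are the mean with the SD. Angpt2 has 14.4 to 20.9 CPM in control and 7.25 to 7.68 after neomycin, whereas Nrp1 has 38.9 to 41.4 and 38.4 to 40.8.

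The promoters of the signals that fell are shown where a window was held, and a shared control of these genes was not tested. RefSeq windows on GRCm38.p6 (mm10) were held for 8 of the 10 signals, 10 windows in all, and not for Angpt1 or Angpt2. Each line below is the 250 bases before the start site, read 5′ to 3′ on the gene's strand, and capitals mark the hypoxia response element core, ACGTG or GCGTG on either strand, overlaps included. The windows are chr17:46032378-46032627 (minus strand) for Vegfa, chr12:85177314-85177563 (minus) for the first of the windows of Pgf, chr1:62703067-62703316 (plus) for Nrp2, and chrX:48034854-48035103 (minus) for Apln.
Vegfa: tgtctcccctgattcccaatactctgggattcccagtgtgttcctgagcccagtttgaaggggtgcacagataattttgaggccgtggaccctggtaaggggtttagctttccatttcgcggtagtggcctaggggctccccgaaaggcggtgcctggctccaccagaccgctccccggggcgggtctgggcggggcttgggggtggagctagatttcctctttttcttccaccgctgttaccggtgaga
Pgf: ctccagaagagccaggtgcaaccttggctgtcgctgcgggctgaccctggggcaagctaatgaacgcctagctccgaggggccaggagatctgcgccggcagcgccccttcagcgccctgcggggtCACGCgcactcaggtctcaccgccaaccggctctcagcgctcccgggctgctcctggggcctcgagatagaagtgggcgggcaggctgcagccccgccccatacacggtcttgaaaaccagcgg
Nrp2: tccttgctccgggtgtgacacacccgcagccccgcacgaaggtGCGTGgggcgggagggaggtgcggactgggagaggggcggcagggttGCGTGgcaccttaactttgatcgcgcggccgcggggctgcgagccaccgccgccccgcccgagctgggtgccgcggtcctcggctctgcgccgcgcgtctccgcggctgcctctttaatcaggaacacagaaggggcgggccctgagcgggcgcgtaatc
Apln: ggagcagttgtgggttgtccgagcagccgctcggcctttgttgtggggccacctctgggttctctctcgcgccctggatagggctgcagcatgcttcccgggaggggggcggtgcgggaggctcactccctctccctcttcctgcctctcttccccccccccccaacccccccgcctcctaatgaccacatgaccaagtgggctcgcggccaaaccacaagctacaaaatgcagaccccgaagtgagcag
The core occurred 2 times in the window of Nrp2 and 1 time in that of Pgf. The windows of Vegfa and Apln shown above held 0 copies, which says only that these letters are not within these 250 bases. A further Vegfa window, chr17:46025164-46025413, held 2 copies, as did that of Vegfb, and the window of Nrp1 held 1. A further window of Pgf, chr12:85175983-85176232, held 0 copies, as did those of Vegfc and Figf. Of the signals' 10 windows 5 held the core, or 50%, and of all 32851 promoter windows 38.6% did. The palindrome CACGTG, which contains the core, was in 0 of the 10.

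Among the VEGF ligands, Vegfa and Pgf fell, and the other 3 did not pass the test. Vegfa (ENSMUSG00000023951.17), on mm10 chromosome 17 from 46016993 to 46032369, had 339, 464 and 434 CPM in control replicates 1, 2 and 3 and 222, 314 and 322 CPM in neomycin replicates 1, 2 and 3. The lowest control and the highest neomycin sample were close, at 339 and 322, but the groups did not overlap. The mean level was 412 ± 65.3 CPM in the control group and 286 ± 55.9 CPM in the neomycin group (SD, n = 3), and the fitted log2 difference was -0.53 (95% interval -0.83 to -0.22, edgeR, adjusted p = 0.0161). Without control replicate 2 the log2 fold change was -0.43 and the adjusted p 0.0880. Counts per gene do not separate the splice forms of Vegfa.

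Placental growth factor, Pgf, is a ligand of VEGFR1 that does not bind VEGFR2. It lies on chromosome 12 from 85166635 to 85177790 and had 12.2, 12.3 and 14.4 CPM in control and 6.06, 9.12 and 6.65 CPM after neomycin. Every neomycin sample lay well below every control sample. The level was 1.78-fold lower, a log2 fold change of -0.83 (95% interval -1.17 to -0.50, edgeR, adjusted p = 0.00223).

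Vegfb, a ligand of VEGFR1 with little activity in vessel growth, was the only VEGF ligand with a higher mean after neomycin, and it did not pass the test. It lies on chromosome 19 from 6982473 to 6987651 and had 50.1, 48.8 and 58.2 CPM in control and 57.5, 60.9 and 64.3 CPM after neomycin. Control replicate 3 lay above neomycin replicate 1, so the groups overlapped. The log2 fold change was 0.22 (95% interval 0.04 to 0.40, edgeR, adjusted p = 0.0662). It was 0.31 without control replicate 3 (adjusted p = 0.00969), 0.24 with upper quartile scaling (adjusted p = 0.0492) and -0.017 with a correction for gene length (adjusted p = 0.878).

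The lymphatic ligands Vegfc and Figf stood lower in level. Vegfc, on chromosome 8 from 54077606 to 54187096, had 8.59, 10.85 and 10.4 CPM in control and 8.40, 11.4 and 8.71 CPM after neomycin. The groups overlapped, and the log2 fold change was -0.06 with a 95% interval of -0.38 to 0.25 (edgeR, adjusted p = 0.771). Without control replicate 2 or neomycin replicate 1 it was 0.0064 or 0.017. Figf, on chromosome X from 164373378 to 164402650, had 1.75, 1.23 and 1.60 CPM in control and 1.22, 0.983 and 0.875 CPM after neomycin. Its groups did not overlap, with control replicate 2 and neomycin replicate 1 almost equal. At 47 to 121 counts per sample the log2 fold change of -0.57 had a 95% interval of -1.22 to 0.07 (edgeR, adjusted p = 0.163). Of 6 markers of lymphatic endothelium, 5 could be tested, and 1 was lower, against 16.1% of all genes. It was Prox1, which supporting cells also express. The lymphatic chemokine Ccl21a was at 0 in all 6 samples, which allows an expected count of up to 3 in each. Lyve1 had at most 0.556 CPM. How reads shared between genes were counted is not given, so the 0 of Ccl21a need not mean absence.

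Divided by the exon length of each gene, Vegfa was the most abundant of the 10 signals in both groups, at 96.2 ± 15.2 CPM per kb in control and 66.8 ± 13.0 after neomycin (SD, n = 3). Vegfb followed at 32.6 ± 3.17 and 37.9 ± 2.14 CPM per kb, and Apln at 10.4 ± 0.893 and 6.18 ± 1.06. These 3 ranks were the same in both groups, and no sample of 1 of them reached the range of the next. Below them in control came Angpt2, Pgf, Nrp1, Vegfc, Nrp2 and Angpt1, from 4.90 down to 2.58 CPM per kb, and each of these overlapped its neighbour in the order. After neomycin the order of this group was Nrp1, Vegfc, Angpt1, Pgf, Nrp2 and Angpt2, from 4.04 down to 2.02 CPM per kb, again with overlap between neighbours. Figf was the lowest in both groups, at 0.634 ± 0.113 and 0.427 ± 0.0742 CPM per kb. Exon lengths were summed over all annotated isoforms, so a gene with long isoforms that are not used appears lower than it is.

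Of the summed VEGF ligand RNA per kb, Vegfa held 66.6%, 73.2% and 68.7% in the control samples and 55.3%, 61.4% and 61.9% in the neomycin samples. The highest share after neomycin was below the lowest in control. Mean shares were 69.5 ± 3.39% and 59.5 ± 3.68% (SD, n = 3), a difference of -9.97 percentage points, and -5.98 when CPM were not divided by length. An exact two-sided permutation test gave p = 0.1, and a design of 3 against 3 can reach no smaller value. Vegfb took most of the remainder, at 23.8 ± 2.94% in control and 34.3 ± 3.46% after neomycin, and Pgf went from 3.26 ± 0.357% to 2.25 ± 0.372%. The shares were taken without the correction for gene length between samples. With that correction the log2 fold change was -0.017 for Vegfb and -0.52 for Vegfa (edgeR, adjusted p = 0.878 and 0.0143).

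The angiopoietins differed from each other. Angpt2 (ENSMUSG00000031465.6), on chromosome 8 from 18690263 to 18741562, had 20.9, 14.4 and 18.9 CPM in control and 7.25, 7.68 and 7.39 CPM after neomycin. The neomycin samples lay close together, below every control sample. Mean levels were 18.1 ± 3.34 and 7.44 ± 0.218 CPM (SD, n = 3). This was 2.43-fold lower, with a log2 fold change of -1.28 (95% interval -1.57 to -0.99, edgeR, adjusted p = 5.07e-05), the largest change among the 10. Angpt2 lies inside Mcph1 on the opposite strand without sharing exon bases, and Mcph1 had a log2 fold change of -0.20 (edgeR, adjusted p = 0.360).

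Angpt1, on chromosome 15 from 42424723 to 42676977, had 16.6, 11.6 and 12.0 CPM in control and 14.0, 16.3 and 18.2 CPM after neomycin. Control replicate 1 stood apart from the other control samples and within the neomycin range. The log2 fold change was 0.27 (95% interval -0.05 to 0.58, edgeR, adjusted p = 0.188), and without control replicate 1 it was 0.46 (adjusted p = 0.0233). An antisense gene shares 737 exon bases with Angpt1, and unstranded counting could mix their reads.

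The ratio of Angpt1 to Angpt2 within a sample, which needs no scaling between samples, stood at 0.794, 0.807 and 0.635 in control replicates 1, 2 and 3 and at 1.93, 2.12 and 2.46 in the neomycin replicates. Angpt2 counts exceeded Angpt1 counts in 3 of 3 control samples and fell short of them in 3 of 3 neomycin samples. On the log2 scale the mean ratio was -0.43 ± 0.19 and 1.11 ± 0.18, respectively (SD, n = 3), a difference of 1.54 (exact two-sided permutation test, p = 0.1, the smallest possible). Leaving out 1 sample at a time, the difference stayed between 1.43 and 1.62.

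**Figure D2:**
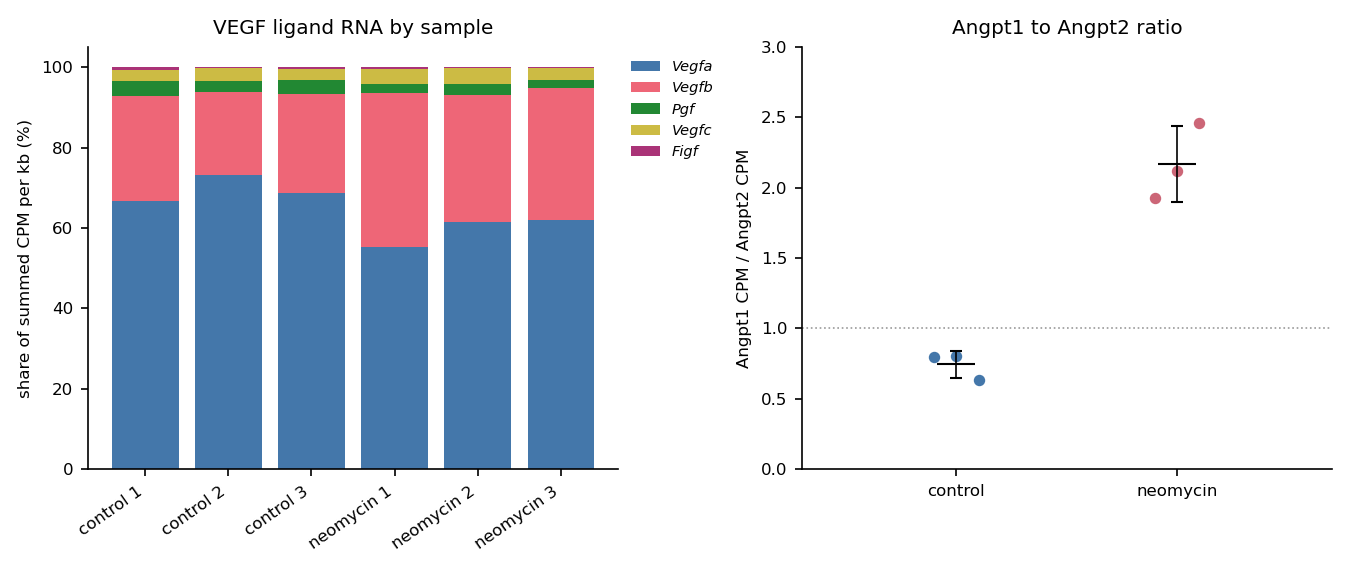
Left: share of each VEGF ligand in the summed ligand level (CPM per kb of exon, in %) for the 3 control and 3 neomycin samples, with Vegfa at 66.6% to 73.2% in control and 55.3% to 61.9% after neomycin. Right: Angpt1 CPM divided by Angpt2 CPM, 1 point per sample with mean and SD; the dotted line marks equal CPM, with control below it (0.635 to 0.807) and neomycin above it (1.93 to 2.46).

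The neuropilins, which bind VEGF as well as class 3 semaphorins, also parted. Nrp2, on chromosome 1 from 62703285 to 62818695, had 41.7, 41.3 and 35.8 CPM in control and 29.5, 28.0 and 21.6 CPM after neomycin. No neomycin sample reached the control range. The log2 fold change was -0.59 (95% interval -0.83 to -0.34, edgeR, adjusted p = 0.00295), a fold change that sat at the threshold of 1.5 and was below it in DESeq2 and with its size factors, upper quartile scaling or the length correction, with or without the block. It was also below 1.5 without control replicate 1, control replicate 2 or neomycin replicate 3, at log2 fold changes of -0.54, -0.55 and -0.46. With the correction for gene length the log2 fold change was -0.38, still at an adjusted p-value under 0.05. Nrp1, on chromosome 8 from 128358604 to 128503363, had 41.2, 41.4 and 38.9 CPM in control and 38.4, 40.8 and 39.3 CPM after neomycin. These values overlapped and spread little, so that the 95% interval of the log2 fold change of -0.04 ran from -0.19 to 0.12 (edgeR, adjusted p = 0.739). With the correction for gene length the log2 fold change of Nrp1 was 0.14 (adjusted p = 0.151).

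Of 13 partners of the neuropilins, 6 fell and 0 rose, against 16.1% of all genes tested called lower and 12.9% called higher. The median log2 fold change of the 13 partners was -0.26, and 0 of the 6 passed the fold change of 1.5. At an unadjusted p-value under 0.05, Gipc1, which binds the neuropilin tail inside the cell, was the only one higher, at 0.16 (edgeR, adjusted p = 0.0942). The semaphorin receptor Plxna2 had the lowest adjusted p of the list and went from 50.6, 49.2 and 40.8 CPM in control to 30.7, 31.6 and 31.6 CPM after neomycin (log2 fold change -0.58, edgeR, adjusted p = 0.000702). The plexins Plxna1 and Plxnd1 had log2 fold changes of -0.41 and -0.38, and the ligands Sema3f, Sema3e and Sema3c had -0.26, -0.44 and -0.43. Sema3c overlapped between groups. Exon length was 17.2 kb for Plxna2 and 1.73 kb for Gipc1. The correction for gene length raised the log2 fold changes of Nrp1 and Nrp2. The part of length in the changes of the partners was not tested. Sema3a, the classical ligand of Nrp1, had -0.10 (edgeR, adjusted p = 0.578).

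Apelin RNA fell. Apln (ENSMUSG00000037010.7), on chromosome X from 48025146 to 48034853, had 31.4, 30.7 and 35.9 CPM in control and 15.7, 22.0 and 20.6 CPM after neomycin. All neomycin samples lay below all control samples. The level was 1.68-fold lower, with a log2 fold change of -0.75 (95% interval -1.01 to -0.48, edgeR, adjusted p = 0.00101).

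The receptor of apelin went the other way. Aplnr had 1.01, 0.383 and 0.498 CPM in control and 2.49, 1.88 and 1.28 CPM after neomycin, from 20 to 70 and 69 to 132 counts. The groups did not overlap in CPM, and the log2 fold change was 1.55 (95% interval 0.69 to 2.41, edgeR, adjusted p = 0.0127). Without control replicate 2 it was 1.31 (adjusted p = 0.0571). Apela, another ligand of Aplnr, had 3 to 20 counts per sample, and its log2 fold change of -0.06 had a 95% interval of -1.45 to 1.34 (edgeR, adjusted p = 0.959).

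Of 10 receptors and regulators of these signals, 3 fell and 1, Aplnr, rose, and the median log2 fold change was -0.50. Of all genes tested, 16.1% were called lower and 12.9% higher, so 1 of 10 higher does not set the list apart. The 3 that fell were receptors of the endothelium and passed the fold change of 1.5, against 6.60% of all genes. Tie1, the orphan partner of Tie2, had 3.26, 1.65 and 3.40 CPM in control and 0.377, 0.542 and 0.242 CPM after neomycin. These values came from 86 to 225 counts in control and 13 to 32 after neomycin. The level of Tie1 was 7.10-fold lower (log2 fold change -2.83, 95% interval -3.65 to -2.00, edgeR, adjusted p = 0.000313). Flt1 had 4.97, 4.37 and 4.75 CPM in control and 1.32, 1.02 and 1.62 CPM after neomycin, 3.57-fold lower (edgeR, adjusted p = 0.000130). Kdr had 11.3, 12.4 and 9.29 CPM in control and 5.82, 5.03 and 6.14 CPM after neomycin, 1.94-fold lower (edgeR, adjusted p = 0.000629).

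Tek, the receptor of both angiopoietins, did not pass the test. It had 11.2, 7.09 and 12.3 CPM in control and 9.43, 8.59 and 8.51 CPM after neomycin, with control replicate 2 below all others, and a log2 fold change of -0.21 (95% interval -0.59 to 0.17, edgeR, adjusted p = 0.396). Flt4, the receptor of VEGF-C and VEGF-D, had a log2 fold change of -0.66 (edgeR, adjusted p = 0.108). Leaving out neomycin replicate 3 gave -0.97 for Flt4 (adjusted p = 0.0415). The endothelial phosphatase Ptprb had -1.22 (edgeR, adjusted p = 0.0753) from 10 to 52 counts per sample, and Angpt4 had 0.44 (edgeR, adjusted p = 0.351). Svep1, a matrix protein that binds angiopoietins and shares exon bases with an antisense gene, had -0.35 (edgeR, adjusted p = 0.0787), and without control replicate 3 or neomycin replicate 1 it was -0.43 or -0.45 (adjusted p = 0.0406 and 0.0417).

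**Figure D3:**
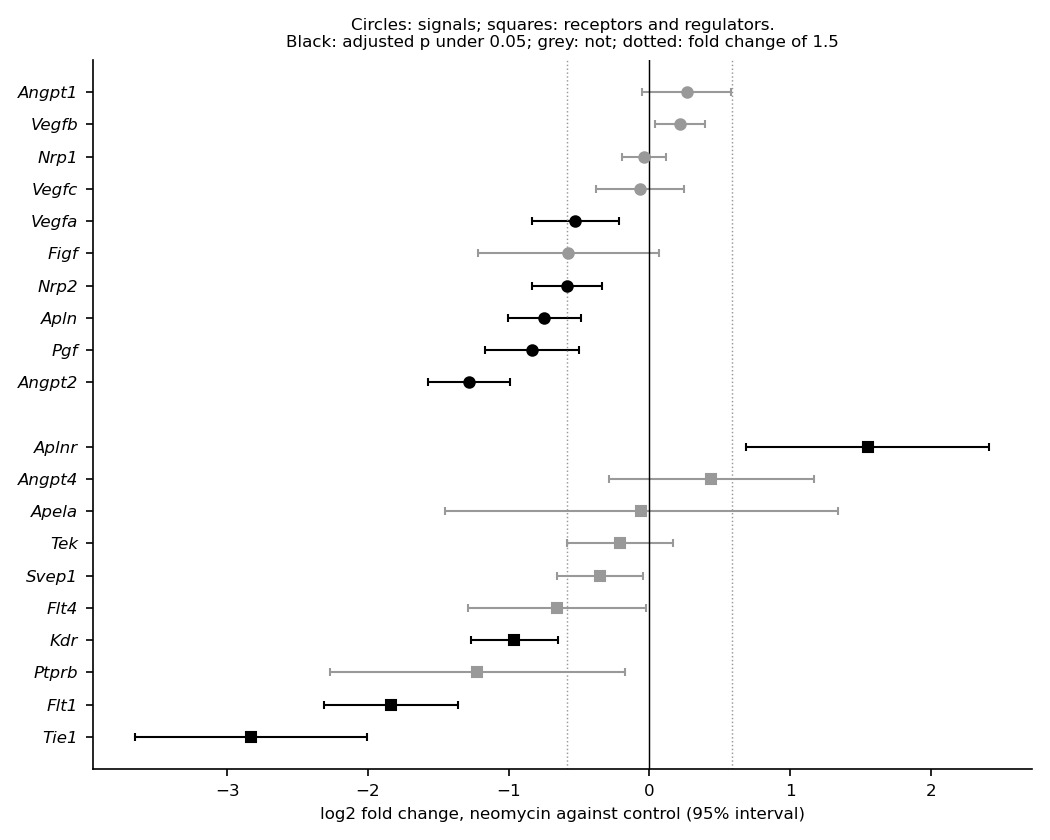
Log2 fold change of neomycin against control (horizontal axis) with its 95% interval from edgeR for the 10 signals (circles) and 10 receptors and regulators (squares); black marks an adjusted p-value under 0.05, and dotted lines mark a fold change of 1.5. Tie1 at -2.83 and Aplnr at 1.55 are the ends of the range, and Angpt2 at -1.28 is the lowest signal.

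Genes that endothelial cells switch on in response to VEGF, or that mark the leading cells of a sprout, were lower in part. Of 19 such genes, 9 fell and 0 rose (edgeR, also 0 higher at an unadjusted p-value under 0.05). Of all genes tested, 16.1% were called lower and 12.9% higher. The list median was -0.40 on the log2 scale. Of the 9 that fell, 5 passed the fold change of 1.5, against 6.60% of all genes that were lower past it. Esm1 (endocan) had 5.56, 4.85 and 7.97 CPM in control and 0.603, 0.881 and 1.19 CPM after neomycin, a log2 fold change of -2.78 (edgeR, adjusted p = 2.88e-05). The Notch ligand Dll4 had 8.09, 6.56 and 7.76 CPM in control and 2.54, 1.54 and 1.97 CPM after neomycin, a log2 fold change of -1.89 (edgeR, adjusted p = 4.59e-05). The chemokine receptor Cxcr4 had -1.17 (edgeR, adjusted p = 0.000179), and the netrin receptor Unc5b and the transcription factor Ets1 had smaller changes, -0.39 and -0.40 (edgeR, adjusted p = 0.00324 and 0.00338). Several of these genes, Cxcr4 and Unc5b among them, are not restricted to endothelium.

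Of 13 extracellular modulators of VEGF, 4 fell and 1 rose, and the list had a median log2 fold change of 0.03. Of all genes tested, 16.1% were called lower and 12.9% higher, so 1 of 13 higher does not set the list apart. The thrombospondins, which restrain vessel growth, were lower: Thbs2 had 48.1, 53.7 and 53.0 CPM in control and 27.5, 38.0 and 29.7 CPM after neomycin (log2 fold change -0.70, edgeR, adjusted p = 0.000792), and Thbs1 had -0.53 (adjusted p = 0.0106). Vash1, an inhibitor that endothelial cells make, fell by 0.52 on the log2 scale (edgeR, adjusted p = 0.00393), and the heparan sulfate proteoglycan Hspg2 (perlecan), which binds VEGF, fell by 0.47 (edgeR, adjusted p = 0.0219). Hspg2 overlapped between groups, with control replicate 3 at 153 CPM and neomycin replicate 3 at 156 CPM. Serpinf1 (PEDF), another inhibitor, rose from 232, 186 and 213 CPM to 283, 294 and 265 CPM (log2 fold change 0.41, edgeR, adjusted p = 0.00521). Ccbe1 and Adamts3, which prepare VEGF-C for its receptor, had log2 fold changes of 0.03 and -0.27 (edgeR, adjusted p = 0.938 and 0.102).

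Markers of endothelium moved with the signals. Of 18 markers, 12 were lower after neomycin and 0 higher (edgeR, also 0 higher at an unadjusted p-value under 0.05). Of all genes tested, 16.1% were called lower and 12.9% higher. The median log2 fold change of the 18 markers was -1.31, and their part in the fall of Angpt2, Apln and the receptors was not tested. Pecam1 had 10.7, 6.65 and 12.0 CPM in control and 1.81, 1.71 and 0.949 CPM after neomycin, and the log2 fold changes of Pecam1, Cdh5 and Cldn5 were -2.71, -2.05 and -3.40 (edgeR, adjusted p = 2.66e-05, 3.99e-06 and 0.000448). The summed level of the 18 was 389 to 446 CPM in control and 362 to 417 CPM after neomycin. Emcn, Egfl7 and Eng, which were not called, made up 79.5% to 82.7% of this sum in control and 90.2% to 91.0% after neomycin. The other 15 markers summed to 67.3 to 91.25 CPM in control and 35.4 to 37.9 CPM after neomycin. No marker was at 0 in any sample. Erg, an endothelial transcription factor, had a log2 fold change of -0.16 (edgeR, adjusted p = 0.460).

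Of 12 markers of pericytes and vascular smooth muscle, 11 were tested, 4 were lower and 1 was higher, against 16.1% and 12.9% of all genes. Kcnj8 and Abcc9, the subunits of the pericyte potassium channel, had log2 fold changes of -1.58 and -1.29 (edgeR, adjusted p = 0.000341 and 0.00208), and Des (desmin) rose by 0.49 (edgeR, adjusted p = 0.00221). The summed level was 304 to 361 CPM in control and 274 to 296 CPM after neomycin. Of 12 macrophage markers, 7 were higher and 0 lower (edgeR, also 0 lower at an unadjusted p-value under 0.05), with sums of 106 to 138 CPM in control and 154 to 191 CPM after neomycin. Of 10 mesenchyme markers 2 were higher and 2 lower, of 12 supporting cell markers 2 and 3, of 10 Schwann cell markers 1 and 2, and of 10 neuronal markers 3 and 3. Against the 12.9% higher and 16.1% lower of all genes, counts this small do not set these 4 lists apart. The summed level of the supporting cell markers was 3415 to 3991 CPM in control and 4351 to 4489 CPM after neomycin. The sums of the mesenchyme, Schwann cell and neuronal markers overlapped between groups. The part of any of these cell types in the levels of the signals was not tested.

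**Figure D4:**
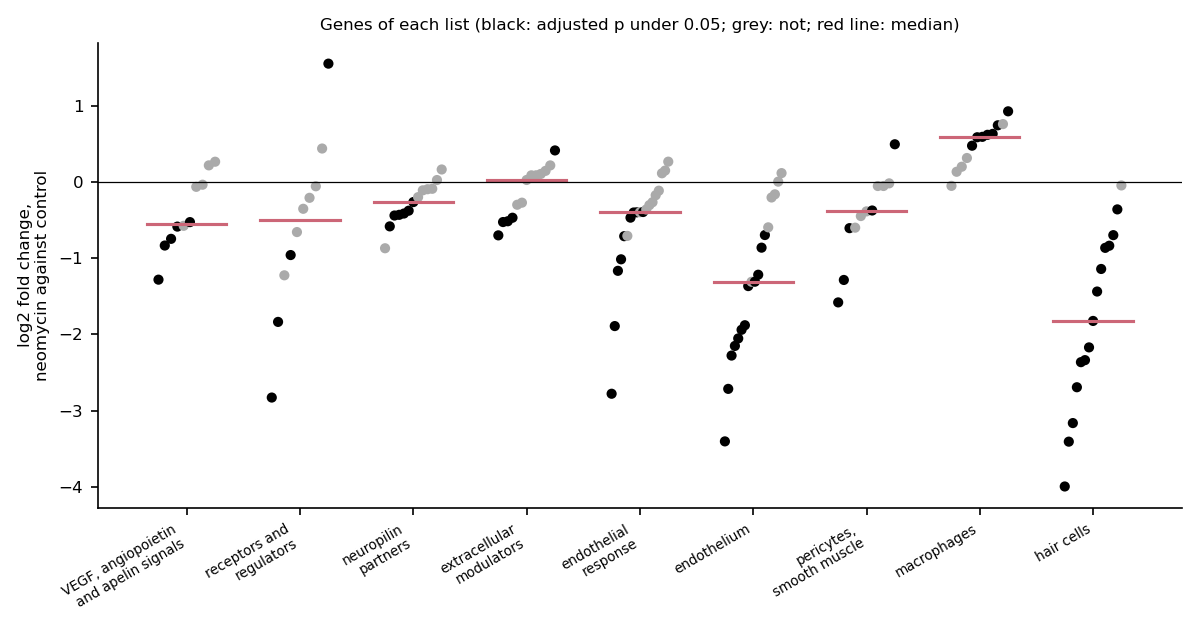
Log2 fold change of neomycin against control for each tested gene of 9 lists (points; black for an adjusted p-value under 0.05, grey otherwise) with the median of each list as a red line. The median is -0.55 for the signals, -1.31 for endothelium, -1.82 for HCs and 0.59 for macrophages.

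The direction of the 5 falls was the same in each of the 16 alternative analyses. Over these, the log2 fold change of Angpt2 lay between -1.42 and -1.16, that of Apln between -0.85 and -0.61, that of Pgf between -1.03 and -0.72, that of Nrp2 between -0.67 and -0.38, and that of Vegfa between -0.64 and -0.37.

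**Figure D5:**
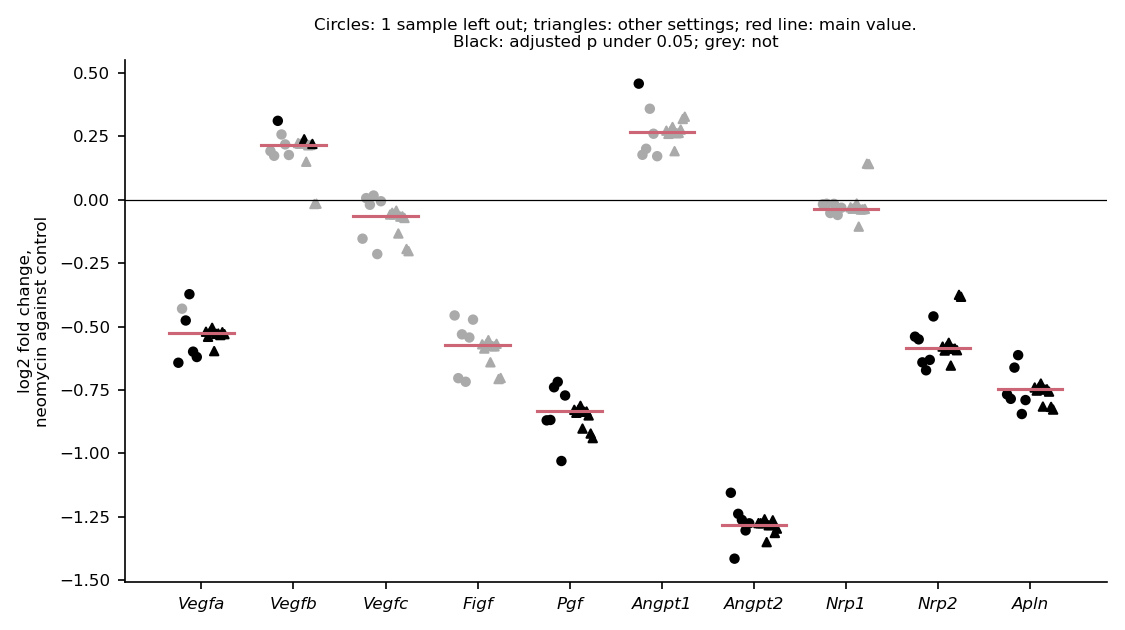
Log2 fold change of each of the 10 signals (vertical axis) with 1 sample left out (circles) or under another test, scaling, filter, block or length correction (triangles); the red line is the value of the main analysis, and black marks an adjusted p-value under 0.05. Angpt2, Apln, Pgf and Nrp2 are black throughout, Vegfa is grey in 1 of 16, and Vegfb, Vegfc and Nrp1 have values on both sides of 0.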

How the data were processed

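The authors deposited raw counts per gene symbol for 6 bulk mRNA libraries of cochlear explants. Per the labels and the submitters' processing notes, CASAVA 1.8, Trimmomatic 0.23, HISAT2, HTSeq and DESeq2 were used. Per the study's methods, reads were aligned to the UCSC mm10 genome and counted over its UCSC gene annotation. The strand setting is not given in the sources used here. Total counts per sample were 50471116 to 66068108, so counting error is small for all but the rarest genes. Groups came from the sample titles.

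Counts were filtered with filterByExpr (15988 of 24421 symbols kept), scaled by TMM and tested between groups with the quasi-likelihood test of edgeR 4.0.16 (R 4.3.3), with Benjamini-Hochberg adjustment over all genes tested, after the step was tested on simulated data. Fold changes are model estimates with 95% intervals, and CPM used TMM-scaled library sizes. Ratios and shares within a sample were compared by an exact two-sided permutation test. Gene positions and exon lengths came from another annotation of that build, GENCODE vM21 (mm10), which held 23336 symbols directly and 668 through an older symbol, and 99.1% of tested genes had a length. The alternatives were DESeq2 1.42.0, limma-voom (limma 3.58.1), 3 other scalings, 2 other filters, a replicate block, a length correction (lowess span 0.3), both together, and leaving out each sample.

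The signals and all gene lists were chosen with earlier results of these data known. The text names every signal, every receptor or regulator, and of each other list up to 5 genes with the lowest adjusted p and up to 3 defining markers. Sema3a, Sema3c, Gipc1, Ccbe1, Adamts3, Erg, Emcn, Egfl7, Eng, Des, Vhl, Higd1a, Ldha and Pgk1 were named beyond that after their values were seen. Genes are counted as a whole, so isoforms are not separated. Replicates of a group differed by a chi-square of 13.4 to 44.9 per gene, more than sampling noise, so that each was counted once. The labels name no batch. The design text of the series names a cultured cell line and its knockdowns in place of cochlear explants, so samples were taken by their own labels, and HC markers were present in all 6 libraries.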

Additional observations from a re-analysis of the deposited data

How the results depend on the processing

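Of the log2 fold changes of the 10 signals and the 10 receptors and regulators, 300 values under an alternative kept their direction and their side of the threshold, 8 passed it, 2 no longer did and 8 changed sign. The 8 changes of sign were in 4 genes that were not called. Vegfb was -0.017 with the length correction, and -0.016 with block and length correction. Nrp1 was 0.14 under each of these. Vegfc ranged from -0.21 to 0.017 and Apela from -0.44 to 0.40 with 1 sample left out. Counts of signals called higher became 1 with upper quartile scaling (Vegfb), and 0 to 1 with 1 sample left out. Signals called lower numbered 4 to 5 with 1 sample left out, and receptors and regulators called higher 0 to 1. Over all genes, those called lower ranged from 1505 to 2763 with 1 sample left out, and those called higher from 1007 to 2578. Genes called higher numbered 1349 when only library totals were used. Those that also passed the fold change were 233 with library totals only, 227 with the length correction, 228 with block and length correction, and 237 to 513 with 1 sample left out. The difference in the Vegfa share was -5.98 points without division by length. The cause of these shifts was not tested. Ptprb and Apela had no value under the filter of at least 1 CPM in 3 samples.

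Samples with the same replicate number correlated at 0.165, 0.026 and 0.095 in their deviations from the group means. Control replicates 1 and 3 correlated best with the neomycin sample of their own number, and control replicate 2 with neomycin replicate 3 (0.032). The labels state no pairing, so the main test did not pair the samples, but these values do not exclude one. With a replicate block, 3229 genes were lower and 2785 higher, 5 of the signals were lower and 1, Vegfb, was higher (edgeR, adjusted p = 0.0156). Svep1 was then called lower as well (adjusted p = 0.0322).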

Other observations

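Genes that respond to low oxygen, a known inducer of Vegfa, showed a share of calls near that of all genes. Of 24 such genes, 5 fell and 2 rose after neomycin (edgeR, adjusted p-value under 0.05), with a median log2 fold change of -0.21 and 0 past a fold change of 1.5. Of all genes tested, 16.1% were called lower and 12.9% higher, so these counts do not set the list apart. The repressor Bhlhe40 had 130, 171 and 159 CPM in control and 94.9, 108 and 115 CPM after neomycin, a log2 fold change of -0.53 (edgeR, adjusted p = 0.00308). The glycolytic regulators Pfkfb3 and Hk2 had -0.44 and -0.47 (edgeR, adjusted p = 0.00972 and 0.0172), Arnt, the partner of the hypoxia-inducible factors, had -0.37 (adjusted p = 0.00364), and the oxygen sensor Egln3 had -0.57 (adjusted p = 0.0361). Vhl, which marks these factors for degradation, rose by 0.24 (edgeR, adjusted p = 0.0398), and the mitochondrial protein Higd1a by 0.41 (edgeR, adjusted p = 0.0480). The glycolytic enzymes Ldha and Pgk1 had log2 fold changes of 0.05 and -0.03 (edgeR, adjusted p = 0.780 and 0.875) and overlapped between groups. The relation of these genes to the level of Vegfa was not tested.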
